A study of Mus musculus with 3 samples.

Results

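The 1228 microRNA (miRNA) genes of the RefSeq annotation of mouse genome build GRCm38.p6 (mm10), out of 49997 genes in all, were examined for binding of the nuclear receptor RXRA in blood stem and progenitor cells. They were taken by their annotated class. An miRNA gene was called marked in a library when a peak overlapped its annotated hairpin by at least 1 bp or had its summit within 1 kb of it. Where several peaks marked a gene, its fold and pileup are those of the peak of highest fold, and its distance is that of the nearest summit. The hairpins were 39 to 147 bp long (median 80 bp), and all lay on the autosomes or the X chromosome. The series profiled RXRA by CUT&RUN, in which an antibody tethers a nuclease to its target and the DNA cut loose is sequenced. The HSC library was made from 10000 haematopoietic stem cells, sorted as lineage-negative, cKit+, Sca1+, CD48- and CD150+. The MPP libraries, replicates 1 and 2 (written MPP-r1 and MPP-r2 below), were each made from 50000 multipotent progenitors, sorted as lineage-negative, cKit+, Sca1+ and CD150-. All cells were pooled from the bone marrow of 3 or 4 C57BL/6 mice of about 10 months, and nothing says that the MPP libraries came from separate pools. All were exposed for 1 h to bexarotene, a rexinoid drug that activates RXR, at a labelled dose of 1 mM. The mice are labelled VavCre+ and WT, while the protocol for growth writes Rxrabfl/fl (WT), that is, with floxed alleles of Rxra and Rxrb. Whether the alleles were recombined was not tested. Vav-Cre is a recombinase driven by a promoter active throughout the blood system. No library without the drug, without RXRA or with a control antibody is analysed here. Peaks do not measure RNA, so neither the sorted cell types nor the output of any miRNA gene could be checked against expression.

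miRNAs are short RNAs cut from a hairpin in a longer primary transcript. They pair with messenger RNAs mainly through the seed, the stretch after their first base, and lower the output of their targets. Many hairpins lie inside a protein-coding or long non-coding host gene and are made from its transcript, so the start that drives them can lie far away. Others have a start of their own close by. RXRA binds DNA together with partner nuclear receptors such as the retinoic acid, liver X and PPAR receptors, typically at repeats of the half-site AGGTCA. In blood, miR-223 and the miR-23a cluster are known for myeloid cells, miR-150 for mature lymphocytes, the miR-99b cluster and miR-22 for stem cells, and miR-210 for the response to low oxygen.

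The mature sequences below belong to the miRNAs on which the results turn and were taken from the RefSeq miRNA annotation of GRCm38.p6. They are written 5′ to 3′, and capitals mark the seed, bases 2 to 8. The first is made by a gene with no host that was marked in all 3 libraries, and the second by the gene with the highest HSC enrichment. The next 8 come from genes that MPP-r1 and MPP-r2 marked but HSC did not. The pair of miR-34 arms comes from neighbouring hairpins marked by the same HSC peak. The last 8 come from genes without a peak at the hairpin, where all 3 libraries, or HSC and 1 MPP library, had a peak farther upstream or at the start of the host.
mmu-miR-210-3p: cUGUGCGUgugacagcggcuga
mmu-miR-7009-5p: uUGGGGUCaggggaccagagcu
mmu-miR-23a-3p: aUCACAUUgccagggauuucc
mmu-miR-27a-3p: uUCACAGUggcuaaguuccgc
mmu-miR-24-3p: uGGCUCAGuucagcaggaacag
mmu-miR-33-5p: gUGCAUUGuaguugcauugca
mmu-miR-132-3p: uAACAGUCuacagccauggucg
mmu-miR-212-3p: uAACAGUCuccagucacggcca
mmu-miR-423-5p: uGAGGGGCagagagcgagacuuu
mmu-miR-6921-5p: uGAGGGGCaugagguaggaagc
mmu-miR-34b-3p: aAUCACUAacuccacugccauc
mmu-miR-34c-3p: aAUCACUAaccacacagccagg
mmu-miR-99b-5p: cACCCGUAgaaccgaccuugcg
mmu-let-7e-5p: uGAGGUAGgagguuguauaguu
mmu-miR-125a-5p: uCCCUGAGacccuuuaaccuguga
mmu-miR-21a-5p: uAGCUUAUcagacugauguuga
mmu-miR-106b-5p: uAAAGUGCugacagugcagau
mmu-miR-93-5p: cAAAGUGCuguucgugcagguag
mmu-miR-103-3p: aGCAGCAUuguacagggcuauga
mmu-miR-107-3p: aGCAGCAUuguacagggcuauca
Over the 125 genes marked in any library, 118 had a mature sequence, giving 181 mature miRNAs with 175 different seeds. The seed was shared between marked genes for miR-132 and miR-212, for the 3p arms of miR-34b and miR-34c, and for miR-423 and miR-6921, whose genes lie apart. It was also shared by the Mir7094-1 and Mir7094-2 copies, by miR-2861 and miR-3091, and by miR-762 and miR-7648.

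The deposited lists hold 4047 peaks for HSC, 29848 for MPP-r1 and 19570 for MPP-r2, each called on its own. Read totals are not given, so depth was read from the peaks. The lowest local background was 0.604 fragments in HSC, 2.87 in MPP-r1 and 1.08 in MPP-r2, and the lowest pileup of a called peak was 5, 10 and 6 fragments in the same order. The HSC library was therefore the shallowest, and a site without an HSC peak may lie below what that library could call. Cell type, cell number and depth differ together between HSC and MPP and cannot be told apart. Fold enrichment here is the authors' ratio of the pileup at a summit to its local background. It ranks peaks within a list and is not on one scale across lists. With 1 HSC library no test between cell types was made, and intervals are exact 95% intervals that cover counting error only.

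Few miRNA genes carried RXRA at the hairpin. In HSC 21 of 1228 were marked (1.71%, interval 1.06 to 2.60%), against 95 in MPP-r1 (7.74%, 6.30 to 9.37%) and 77 in MPP-r2 (6.27%, 4.98 to 7.77%). In all 3 libraries 11 genes were marked, 3 in HSC alone, and 39 in both MPP libraries without HSC, while 1103 were marked in none. By the same rule, 1.49% of 2751 genes for other small RNAs (snoRNA, snRNA and tRNA) were marked in HSC, 7.42% in MPP-r1 and 7.78% in MPP-r2. These shares lie inside the interval for miRNA genes in HSC and MPP-r1 and just above it in MPP-r2. Of the 21 genes marked in HSC, 15 were marked in MPP-r1 (71.4% of the HSC genes and 15.8% of the MPP-r1 genes). For MPP-r2 the number was 14 (66.7% of the HSC genes and 18.2% of the MPP-r2 genes). The MPP replicates shared 50 genes, which is 52.6% of those in MPP-r1 and 64.9% of those in MPP-r2. Marking of a gene in several libraries mostly meant the same site. Any of the marking peaks overlapped at 15 of 15 genes shared by HSC and MPP-r1, at 13 of 14 shared by HSC and MPP-r2, and at 49 of 50 shared by the MPP replicates. For the peaks of highest fold, whose values are given below, the numbers were 13, 12 and 45, and at 8 of the 11 genes marked in all 3 libraries these overlapped in every pair. The 21, 95 and 77 genes rested on 20, 86 and 71 distinct peaks, since clustered hairpins can share one. The order of the libraries followed the length of the lists. At a stricter q of 1e-05 the numbers were 4 in HSC, 54 in MPP-r1 and 39 in MPP-r2. With each MPP list held to its 4047 peaks of highest fold, 21 miRNA genes were marked in HSC, 8 in MPP-r1 and 9 in MPP-r2.

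Marked miRNA genes lay near protein-coding gene ends more often than miRNA genes as a whole. Of all 1228 genes, 150 (12.2%) lay within 1 kb of either end of a protein-coding gene. Of the marked genes, 15 of 21 did so in HSC (71.4%, 47.8 to 88.7%), 50 of 95 in MPP-r1 (52.6%, 42.1 to 63.0%) and 45 of 77 in MPP-r2 (58.4%, 46.6 to 69.6%). Read as rates, 10.0% of the 150 genes near an end were marked in HSC (5.71 to 16.0%), 33.3% in MPP-r1 (25.9 to 41.5%) and 30.0% in MPP-r2 (22.8 to 38.0%). In both MPP libraries 20.0% were marked, and in all 3 libraries 6.0%. Over the 43262 ends of protein-coding genes themselves, 4.09% were marked in HSC, 21.5% in MPP-r1, 18.6% in MPP-r2, 14.5% in both MPP libraries and 2.74% in all 3. Marking was more frequent near starts than near the other ends. Annotated starts can lie inside a gene, so not all miRNA genes near a start are among the 150. Among the 79 miRNA genes within 1 kb of an annotated protein-coding start, 14 were marked in HSC (17.7%, 10.0 to 27.9%), 41 in MPP-r1 (51.9%, 40.4 to 63.3%) and 40 in MPP-r2 (50.6%, 39.1 to 62.1%). Over the 17274 protein-coding genes with an annotated start the shares were 8.56%, 42.0% and 38.0% for the same libraries. Those values lay below the interval for HSC and MPP-r2 and inside it for MPP-r1. Among the 86 miRNA genes near an end where no start is annotated, 1 was marked in HSC, 12 in MPP-r1 and 7 in MPP-r2, and none in all 3.

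Away from protein-coding ends, marking was rare but not zero. Of the 1078 miRNA genes more than 1 kb from any such end, 6 were marked in HSC (0.557%, 0.205 to 1.21%), 45 in MPP-r1 (4.17%, 3.06 to 5.55%) and 32 in MPP-r2 (2.97%, 2.04 to 4.16%). The part of the genome outside these ends that would mark a single base was 0.203% in HSC, 1.65% in MPP-r1 and 0.986% in MPP-r2, below the interval in each library. A hairpin is longer than a single base, and hairpins cluster, so the units of the comparison differ. Being away from gene ends does not mean being away from starts. The highest-fold summit lay within 1 kb of an annotated gene start at 0 of the 6 marked genes in HSC. In MPP-r1 this held for 6 of 45 and in MPP-r2 for 4 of 32. The 247 of these genes that lie outside any protein-coding or lncRNA gene were marked in 4, 17 and 12 cases in HSC, MPP-r1 and MPP-r2. The 831 that lie inside one were marked in 2, 28 and 20 cases. Only Mir210 and Mir101c were marked in all 3 libraries away from protein-coding ends.

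**Figure D1:**
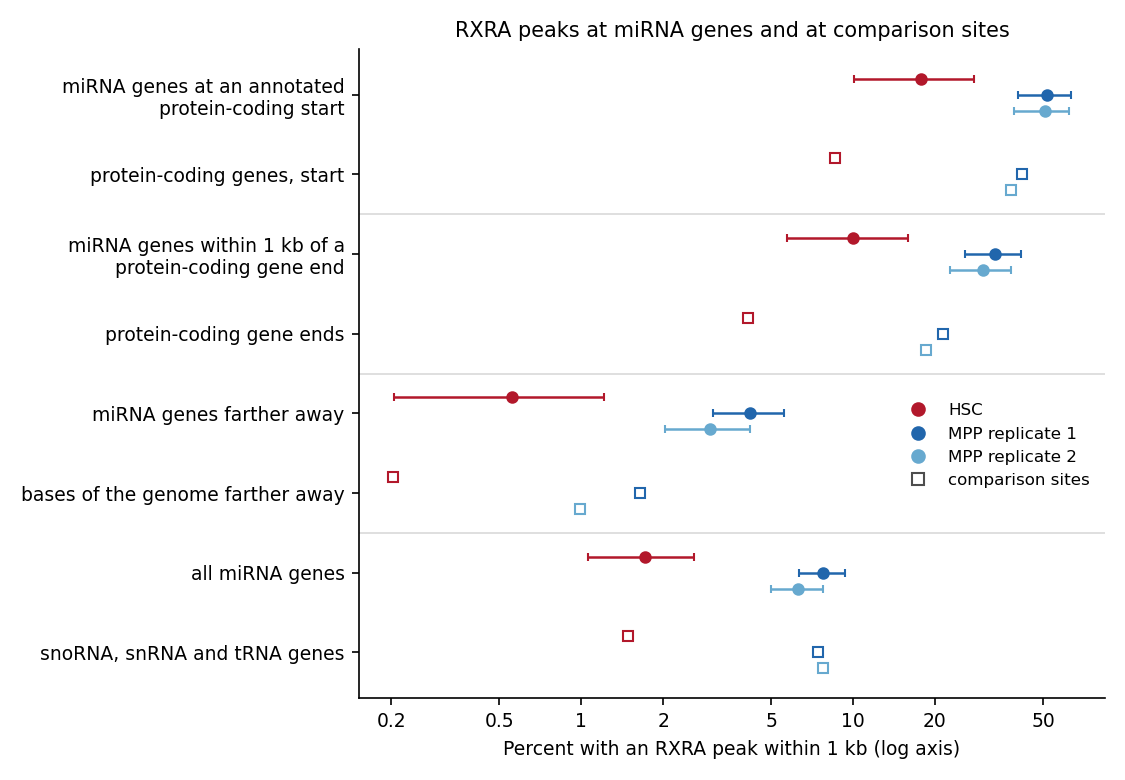
Percent of sites with an RXRA peak within 1 kb, on a log axis, for miRNA gene classes (filled circles with exact 95% binomial intervals) and for the comparison sites given the same rule (open squares), in HSC, MPP-r1 and MPP-r2. In each library the share of marked miRNA genes is highest for miRNA genes at annotated protein-coding starts (17.7% in HSC) and lowest for those farther from protein-coding ends (0.557% in HSC).

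The peaks sat upstream of the hairpin more often than downstream. For genes with a known strand, the summit was upstream of the hairpin centre at 17 of 21 genes in HSC, 61 of 92 in MPP-r1 and 46 of 71 in MPP-r2. Near protein-coding ends it was upstream at 13 of 15, 38 of 49 and 30 of 42 genes. Farther away the sides were closer to even, with 4 of 6, 23 of 43 and 16 of 29 upstream. The marking peak of highest fold covered part of the hairpin at 3 of 21 marked genes in HSC, 24 of 95 in MPP-r1 and 20 of 77 in MPP-r2. By fold, 9 of 21 marking peaks lay above the median of their list in HSC, 48 of 95 in MPP-r1 and 23 of 77 in MPP-r2. Their median percentile of fold was 39.1 in HSC, 51.2 in MPP-r1 and 38.8 in MPP-r2, and their median pileup was 9, 20 and 13 fragments.

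**Figure D2:**
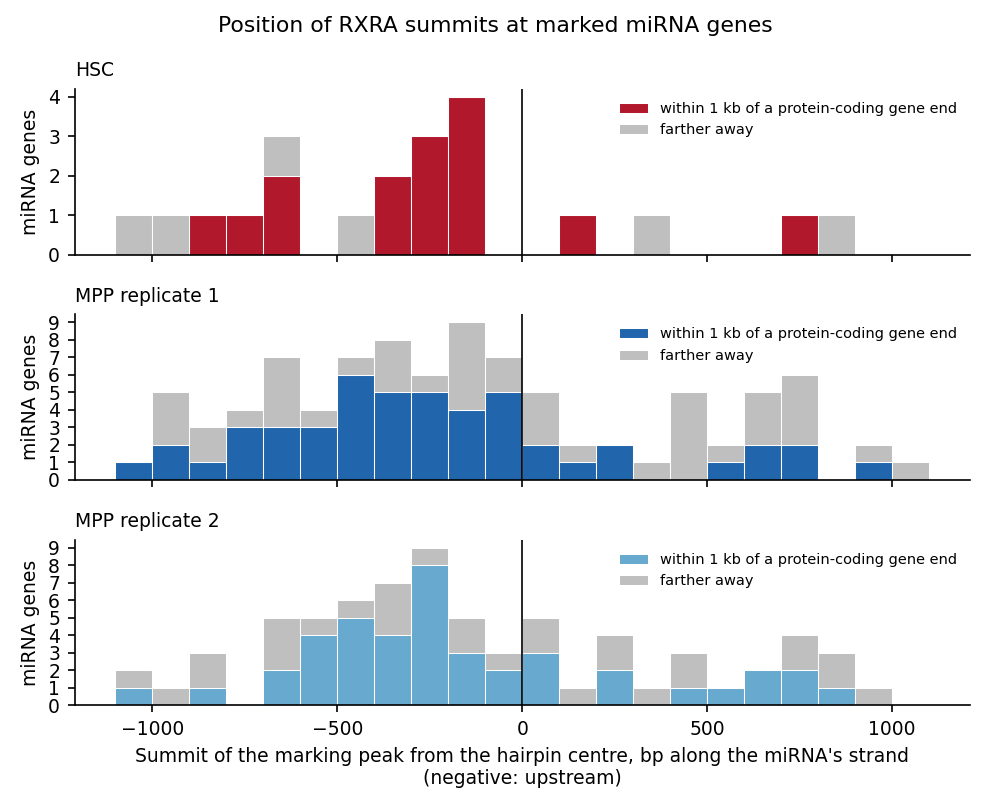
Number of marked miRNA genes by the position of the marking peak's summit, in bp along the miRNA's strand from the hairpin centre, negative values being upstream, for HSC, MPP-r1 and MPP-r2. Colour marks genes within 1 kb of a protein-coding gene end and grey the others. In HSC 17 of 21 summits lie left of the centre line.

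The 11 genes marked in all 3 libraries included 9 at annotated protein-coding starts. The highest fold in HSC and in MPP-r2 was at Mir7009 (chromosome 3, 36475461 to 36475524, minus strand), inside Anxa5, which encodes annexin A5, a protein that binds phosphatidylserine on membranes. The peak there had a fold of 9.35 in HSC, 6.07 in MPP-r1 and 11.7 in MPP-r2. The pileups were 18 (10.7 to 28.4), 26 (17.0 to 38.1) and 34 (23.5 to 47.5) fragments. In MPP-r1 it came after Mir6392. It ranked at the 95.8th, 85.8th and 98.8th percentile of the lists, so it was among the higher peaks of each. The summits lay 310, 322 and 271 bp from the hairpin, on the side of the Anxa5 start, which is 363 bp upstream. Mir8098, 31 bp inside the start of Wdfy2, an endosomal protein gene, had folds of 8.37 in HSC, 4.11 in MPP-r1 and 7.46 in MPP-r2. Mir8101, at the start of Hdac5, a class IIa histone deacetylase gene, had folds of 4.98, 5.95 and 10.0 for HSC, MPP-r1 and MPP-r2. Its rank differed widely, at the 29.2nd percentile in HSC, the 84.8th in MPP-r1 and the 96.5th in MPP-r2.

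The other genes of the set lay near starts of genes with varied functions. Mir6392 lies in Pnpla3, a lipid droplet protein gene, and had folds of 5.61 in HSC, 6.23 in MPP-r1 and 5.27 in MPP-r2. Gm51271 lies beside Chka, the gene of choline kinase alpha, and had folds of 5.75 in HSC and 6.63 in MPP-r2. Its MPP-r1 peak of highest fold, at 4.57, did not overlap those, but another MPP-r1 marking peak overlapped both. Mir207, in the co-chaperone gene Dnaja1, had folds of 5.86 in HSC and 3.25 in MPP-r1. Its MPP-r2 peak of highest fold, at 4.39, did not overlap those, but another MPP-r2 marking peak overlapped both. The MPP-r1 and MPP-r2 folds ranked at the 6.76th and 15.2nd percentile of their lists. The summits of Mir207 in HSC and MPP-r1 lay nearest to the start of the lncRNA Gm6297. That of the MPP-r2 peak of highest fold lay nearest to the Dnaja1 start. Mir1938 in Ifrd1, Mir5131 in Ddhd1 and Mir7238 in Ankrd10 had HSC folds of 5.24, 4.88 and 4.71. Their pileups in HSC were 10, 8 and 8 fragments, around the list median of 9. At Mir5131 the MPP-r1 peak of highest fold overlapped neither the HSC nor the MPP-r2 peak. Another MPP-r1 marking peak overlapped both.

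Mir210 and Mir101c had neither a host nor a protein-coding end nearby. Mir210 encodes miR-210, which is induced by the hypoxia-inducible factors, and lies on chromosome 7 at 141221384 to 141221493, minus strand. Its peak had a fold of 5.56 in HSC, 3.47 in MPP-r1 and 6.93 in MPP-r2, with pileups of 8 (3.45 to 15.8), 14 (7.65 to 23.5) and 17 (9.90 to 27.2) fragments. The summits lay 395, 431 and 313 bp upstream of the hairpin, within 118 bp of each other. The peaks of all 3 libraries overlapped and none reached the hairpin. Mir101c, 75 bp at 3038669 to 3038743 on chromosome 9, is the first annotated gene of that chromosome. Its pileups were 214 fragments in HSC, 236 in MPP-r1 and 182 in MPP-r2, more than 5 times those of any other gene in the set. Its folds were only 4.47, 4.18 and 4.38, so the local background was high as well. Peaks of that size lay at the same place in all 3 libraries. Whether they reflect RXRA was not tested, since no control library is analysed here.

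**Figure D3:**
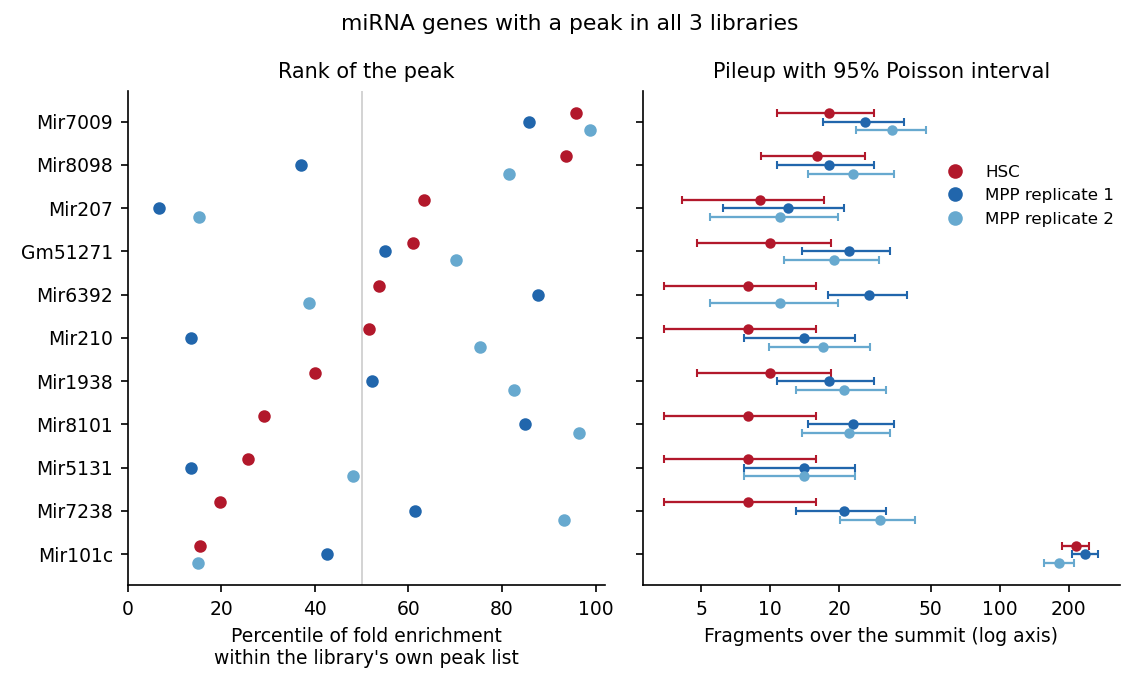
The 11 miRNA genes marked in all 3 libraries, ordered by HSC fold. Left, the percentile of the marking peak's fold within its own list, with a line at 50; right, the number of fragments over the summit on a log axis with its 95% Poisson interval, for HSC, MPP-r1 and MPP-r2. Mir7009 lies above the 85th percentile in every library, and Mir101c stands apart by its pileup.

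Marking in HSC with at most 1 MPP library was seen at 10 genes, 3 of them marked in HSC alone. The HSC-alone genes were Mir484, Gm51276 and Mir7240, with folds of 5.14, 4.96 and 3.90 and pileups of 9, 9 and 8 fragments. Mir484 lies beside the start of Marf1, a regulator of RNAs in mouse oocytes, and its nearest MPP summits were 3479 bp away in MPP-r1 and 3522 bp in MPP-r2. Gm51276 and Mir7240 had an MPP-r2 summit at 1022 and 1021 bp, just past the 1 kb limit, so for these genes the call in HSC alone turns on the limit. Mir6924, near Acap1, had folds of 6.62 in HSC and 5.45 in MPP-r2, and an MPP-r1 summit at 1003 bp. The nearest annotated start to its HSC and MPP-r2 summits was that of Kctd11, 356 and 351 bp away. Mir5627 beside Dnajb9, a chaperone gene of the endoplasmic reticulum, had folds of 5.86 in HSC and 6.06 in MPP-r2. Gm38670 in Hspb6, a small heat shock protein gene, had folds of 5.23 in HSC and 5.14 in MPP-r2, for peaks that do not overlap. Mir6538 in Rnf144a, a ubiquitin ligase gene, had folds of 5.53 in HSC and 4.90 in MPP-r1. Mir193a, whose miRNA is repressed in human leukaemia by the AML1-ETO fusion, had folds of 4.94 in HSC and 4.63 in MPP-r1, with pileups of 7 and 21 fragments. Just inside the limit in HSC lay Mir7240 at 986 bp, Gm51276 at 882 bp and Gm51271 at 803 bp, and just outside lay Mir378a at 1089 bp, Mir5619 at 1178 bp and Mir3069 at 1240 bp.

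Among the 39 genes marked in MPP-r1 and MPP-r2 without HSC, the 3 best by the worse of their MPP ranks lay near protein-coding ends, Mir8116 and Mir423 among them. Mir8116, in the acetylcholinesterase gene Ache and beside the start of Ufsp1, had folds of 8.33 in MPP-r1 and 7.80 in MPP-r2, with pileups of 40 and 25 fragments. Mir7666, near an end of Micu3, a regulator of mitochondrial calcium uptake, had folds of 8.53 in MPP-r1 and 6.25 in MPP-r2. Mir423 (chromosome 11, 77078064 to 77078172, minus strand), in the splicing regulator gene Nsrp1, had folds of 6.67 and 7.0, pileups of 25 and 14 fragments, and summits 217 and 238 bp away. The nearest HSC summit to Mir423 lay 58626 bp away. Mir1900, antisense within Icam5, was marked at the edge of the rule, with summits at 990 and 1000 bp and folds of 4.88 and 5.50. Away from protein-coding ends, Mir6516 in the small nucleolar RNA host gene Snhg20 had folds of 5.88 and 7.13, Mir1907 in Trps1 5.43 and 7.53, and Mir1893 in Epc1 4.91 and 7.85. The Mir6516 summits lay 67 bp in MPP-r1 and 35 bp in MPP-r2 from the annotated start of the lncRNA Snhg20.

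The Mir23a cluster carried 1 shared peak in each MPP library. Mir23a, Mir27a and Mir24-2 lie on the plus strand of chromosome 8 between 84208518 and 84208921, with no host, and Mir3074-2 is annotated on the other strand of Mir24-2. The cluster is a known target of the myeloid factor PU.1, and its miRNAs favour myeloid over lymphoid cells. The fold was 5.44 in MPP-r1 and 5.42 in MPP-r2, with pileups of 33 (22.7 to 46.3) and 21 (13.0 to 32.1) fragments. The summits lay 618 and 612 bp upstream of Mir23a, 6 bp apart. In HSC the nearest summit was 16375 bp away. A second pair of overlapping MPP peaks lay farther upstream, with summits at positions -4310 and -4423 bp from the 5′ edge of Mir23a and folds of 4.09 and 6.03. The 4 genes therefore count as 1 site among the 39, and the count by locus was 35.

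Next, 4 lists of miRNAs known from stem, myeloid, lymphoid, and erythroid or megakaryocytic cells were examined, 101 genes in all. At the hairpin 3 were marked in HSC, 11 in MPP-r1 and 7 in MPP-r2, against 18, 84 and 70 of the 1127 miRNA genes outside the lists. As shares this is 2.97% in HSC (0.617 to 8.44%), 10.9% in MPP-r1 (5.56 to 18.7%) and 6.93% in MPP-r2 (2.83 to 13.8%). The shares outside the lists, at 1.60%, 7.45% and 6.21%, lay inside those intervals. Hairpins that share a peak, such as Mir34b and Mir34c or Mir23a, Mir27a and Mir24-2, were counted singly. The intervals do not allow for this. Of 32 stem and progenitor miRNA genes, 0 were marked in HSC (up to 10.9%) and the same 3, Mir33, Mir132 and Mir212, in each MPP library. Of 17 myeloid genes, 0 were marked in HSC, and Mir23a, Mir27a and Mir24-2 in each MPP library. Of 31 lymphoid genes, 0 were marked in HSC, 2 in MPP-r1 and 0 in MPP-r2. Of 21 erythroid and megakaryocytic genes, 3 were marked in HSC and in MPP-r1 (Mir210, Mir34b and Mir34c), and Mir210 alone in MPP-r2.

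Mir132 and Mir212, which share a seed and have been tied to Foxo3 and stem cell ageing in mice, were covered by 1 peak over both hairpins on chromosome 11. It had folds of 4.48 in MPP-r1 and 5.64 in MPP-r2, with pileups of 20 and 18 fragments. The nearest HSC summit lay 5142 bp from Mir132 and 5411 bp from Mir212. Mir33 lies on chromosome 15 at 82198122 to 82198190 inside Srebf2, the gene of the sterol-sensing factor SREBP2, and its miRNA represses the cholesterol exporter Abca1. Its peak had folds of 4.39 and 4.66 and pileups of 27 and 14 fragments in MPP-r1 and MPP-r2, and the nearest HSC summit was 147793 bp away. Mir34b and Mir34c, known targets of p53, shared an HSC peak of 7 fragments (fold 4.84). They shared an overlapping MPP-r1 peak of 13 fragments (fold 3.54), and the nearest MPP-r2 summit lay 25904 bp from Mir34c. Mir150, known from mature lymphocytes, was marked in MPP-r1 with a fold of 5.01. Its nearest HSC summit was 104119 bp away and its nearest MPP-r2 summit 2625 bp. Mir425 was marked in MPP-r1 with a fold of 5.62, by a peak at a start of Dalrd3 that lies downstream of the hairpin, with its summit 992 bp away.

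Some listed miRNAs had a peak farther upstream that all libraries shared. With a limit of 5 kb, 8 of the 101 listed genes had an HSC summit, 41 an MPP-r1 summit and 23 an MPP-r2 summit. Over all miRNA genes the shares at that limit were 4.64% in HSC, 24.9% in MPP-r1 and 17.3% in MPP-r2. The Mir99b, Mirlet7e and Mir125a cluster lies on the plus strand of chromosome 17 between 17830188 and 17830879, inside Spaca6. Its miR-125a is known to expand stem cells when raised. A peak lay 2128 bp upstream of Mir99b in HSC, 2244 bp in MPP-r1 and 2236 bp in MPP-r2, and the 3 peaks overlapped. Its folds were 6.62, 5.48 and 4.63, and its pileups 12 (6.20 to 21.0), 23 (14.6 to 34.5) and 10 (4.80 to 18.4) fragments. In HSC that put it at the 80.3rd percentile of the list. Mir21a, on the minus strand of chromosome 11 at 86584067 to 86584158, lies at the far end of Vmp1, and in human cells its primary transcript is known to start within that gene. Upstream of it stood peaks at 2926 bp in HSC, 2903 bp in MPP-r1 and 2952 bp in MPP-r2, with folds of 5.86, 5.73 and 10.1. The pileups were 11 (5.49 to 19.7), 25 (16.2 to 36.9) and 33 (22.7 to 46.3) fragments, and the peaks overlapped. Mir22, which acts on Tet2 in stem cells, had a peak 2398 bp upstream in HSC and 2470 bp upstream in MPP-r2, at the start of Mir22hg, with folds of 5.49 and 6.00. The nearest MPP-r1 summit lay 9028 bp away. These peaks were picked out after their values were seen.

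**Figure D4:**
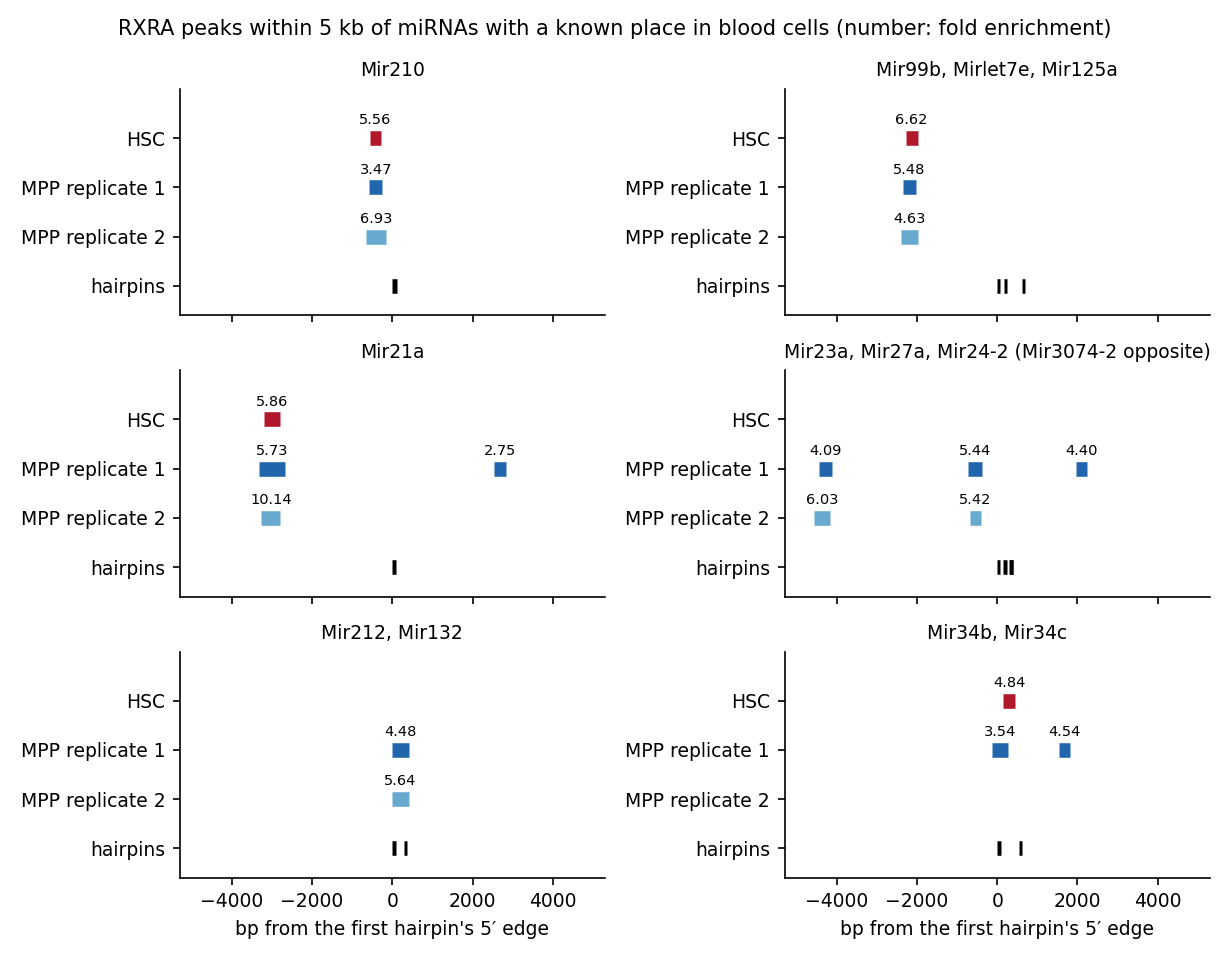
RXRA peaks within 5 kb of 6 loci of listed miRNAs, drawn to scale in bp from the 5′ edge of the first hairpin, with transcription running to the right. Coloured bars are peaks in HSC, MPP-r1 and MPP-r2, with their fold above them, and black bars are hairpins. Peaks line up in all 3 libraries at Mir210, the Mir99b cluster and Mir21a, and only in MPP at the Mir23a and Mir212 loci.

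More miRNA genes had RXRA at the start of their host gene than at the hairpin. Of the 1228 miRNA genes, 612 lie inside a gene on the same strand. A protein-coding host with an annotated upstream start was found for 504, and that start was marked for 75 of them in HSC, 281 in MPP-r1 and 270 in MPP-r2. Counted by host, the start was marked in 70 of 469 in HSC (14.9%, 11.8 to 18.5%), 265 in MPP-r1 (56.5%, 51.9 to 61.0%) and 251 in MPP-r2 (53.5%, 48.9 to 58.1%). The values for all protein-coding genes, 8.56%, 42.0% and 38.0%, lay below these intervals. Leaving out hairpins within 1 kb of a protein-coding end, 54 of 404 hosts were marked in HSC (13.4%, 10.2 to 17.1%), 223 in MPP-r1 and 213 in MPP-r2. Whether hosts differ from other genes in length, activity or number of starts was not tested. Among 54 lncRNA hosts, 4 were marked in HSC (7.41%, 2.06 to 17.9%), 11 in MPP-r1 (20.4%, 10.6 to 33.5%) and 8 in MPP-r2 (14.8%, 6.62 to 27.1%). Over 9520 lncRNA genes the shares were 2.78%, 14.9% and 11.7%, inside the intervals.

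For the listed miRNAs, 44 lie in 34 hosts with an annotated start, and the start of 3 hosts, all protein-coding, was marked in all 3 libraries. That is 3 of 19 protein-coding hosts (15.8%, 3.38 to 39.6%) and 0 of 15 lncRNA hosts (up to 21.8%), against 53 of 469 (11.3%) and 2 of 54 (3.70%) over all hosts. The shares over all hosts lie inside those intervals, so the hosts named here are examples. Mcm7, the gene of a subunit of the replicative helicase, carries Mir106b, Mir93 and Mir25. Its start had folds of 5.69 in HSC, 4.39 in MPP-r1 and 6.76 in MPP-r2, with pileups of 9, 16 and 17 fragments. Vmp1, an autophagy gene that carries Mir21a, had folds of 4.51, 7.14 and 7.36 at an annotated start. Pank1, a pantothenate kinase gene of coenzyme A synthesis that carries Mir107, had folds of 5.28, 3.67 and 5.59. The related kinase genes Pank2 and Pank3 carry the copies Mir103-2 and Mir103-1, whose miRNA shares its seed with miR-107. Pank2 was marked in HSC and MPP-r2, with folds of 4.79 and 6.86, and Pank3 in MPP-r1 and MPP-r2, with folds of 4.91 and 7.94. Each of these 3 hosts thus had a peak at its start in at least 2 libraries.

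Other hosts were marked in MPP and not in HSC. F630028O10Rik, the lncRNA host of the granulocyte miRNA Mir223, had folds of 4.91 in MPP-r1 and 5.75 in MPP-r2 at a start 2891 bp upstream of the hairpin. Aopep, the host of Mir23b, Mir27b and Mir24-1, had folds of 7.70 and 8.30 at a start at least 335591 bp upstream. AA467197, which carries Mir147, had folds of 6.98 and 6.73. Dleu2, the host of Mir15a and Mir16-1, and Egfl7, the host of the stem cell miRNA Mir126a, were marked in MPP-r1 only, with folds of 2.87 and 4.67. Srebf2 was marked at its start in MPP-r2 only, with a fold of 7.0, 50853 bp from Mir33. No start was marked in 6 of the 19 protein-coding and 10 of the 15 lncRNA hosts, against 29.2% and 74.1% over all hosts, among them Mir155hg and Mir17hg, the hosts of inflammatory and MYC-driven miRNAs. The 1 start annotated for Mir17hg lies 37 bp upstream of Mir92-1 and downstream of Mir17. No start of Mir17hg ahead of Mir17 was examined. Counting hairpins and host starts, 10 of the 101 listed genes were marked in HSC (9.90%), 31 in MPP-r1 (30.7%) and 24 in MPP-r2 (23.8%). Over all 1228 miRNA genes the same rule gave 7.25% in HSC, 29.0% in MPP-r1 and 26.2% in MPP-r2, so the listed shares were near the background.

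**Figure D5:**
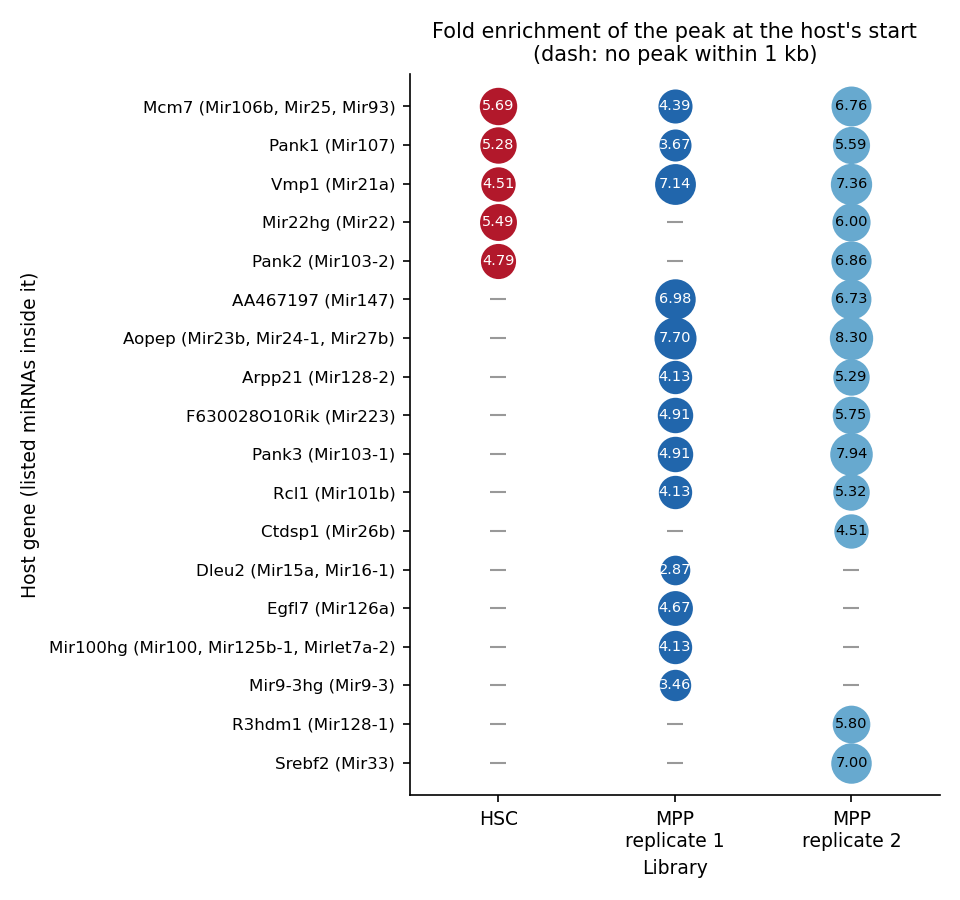
Fold enrichment of the peak within 1 kb of the annotated start of 18 host genes of listed miRNAs, by library, with dot area rising with fold and a dash where there was no peak. Hosts are ordered by the number of libraries with a peak. Mcm7, Pank1 and Vmp1 have a peak in HSC and in both MPP libraries.

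The promoters under these peaks were searched for the nuclear receptor half-site AGGTCA and the E-box CACGTG, the site of MYC and MAX, on both strands and each on its own. The windows run from 250 bases before to 50 after an annotated start, as RefSeq gives them for GRCm38.p6. The half-site was present in 3 of 17 windows overlapped by an HSC peak at an miRNA gene (17.6%, 3.80 to 43.4%). It was present in 12 of 40 windows for MPP-r1 (30.0%, 16.6 to 46.5%) and in 5 of 40 for MPP-r2 (12.5%, 4.19 to 26.8%). Among all 32585 promoter windows 16.2% held it, inside the intervals for HSC and MPP-r2 and just below the one for MPP-r1. Windows of neighbouring starts can overlap and hold the same site, as the Dnaja1 window and a Gm6297 window do. Each window was counted separately, which the intervals do not allow for, so the MPP-r1 share is not read as an excess. The E-box was present in 2 of 17, 4 of 40 and 4 of 40 windows, against 7.20% of all windows. The promoter of Anxa5, beneath the peak of highest fold of the all-3 set in HSC and MPP-r2, and that of Dnaja1, beside Mir207, are printed 5′ to 3′ along the gene's strand, with any AGGTCA or its reverse TGACCT in capitals.
Anxa5, chr3:36475838-36476137, minus strand: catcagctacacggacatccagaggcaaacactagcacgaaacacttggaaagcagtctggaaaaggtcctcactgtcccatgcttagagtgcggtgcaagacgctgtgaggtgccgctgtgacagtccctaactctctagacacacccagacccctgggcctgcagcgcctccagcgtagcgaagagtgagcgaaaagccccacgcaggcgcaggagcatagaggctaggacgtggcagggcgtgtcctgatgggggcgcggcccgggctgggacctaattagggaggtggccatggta
Dnaja1, chr4:40722218-40722517, plus strand: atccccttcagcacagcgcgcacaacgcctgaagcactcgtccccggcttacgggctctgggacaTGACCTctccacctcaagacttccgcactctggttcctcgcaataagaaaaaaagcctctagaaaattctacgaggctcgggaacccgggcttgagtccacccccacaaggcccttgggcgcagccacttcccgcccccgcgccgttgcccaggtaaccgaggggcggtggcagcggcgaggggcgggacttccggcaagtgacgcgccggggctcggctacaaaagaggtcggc
The Dnaja1 window holds 1 half-site, while the Anxa5 window holds neither motif. Of the highest-fold peaks at Mir207, those of HSC and MPP-r1 overlapped the Dnaja1 window and that of MPP-r2 did not. A match describes these letters only and does not show what is bound.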

How the data were processed

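RXRA CUT&RUN was measured in 1 HSC and 2 MPP libraries. Per the submitters' processing notes peaks rest on build mm10 and on MACS2 2.1.4, Bowtie2 2.3.4.1, cutadapt 1.9.1 and Trim Galore 0.4.2. Their settings and any control library were not given in the sources used here. For each library, called separately, the authors deposited a narrowPeak table of 10 columns. Its fold is the authors' deposited ratio of summit pileup to local background, the −log10 p and −log10 q values and the score (10 times −log10 q) are the authors' too, and the last column gives the summit offset. The deposited q-value is at most 0.0995 in HSC, 0.0971 in MPP-r1 and 0.0993 in MPP-r2.

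From these, pileups were solved from fold and p-value. They came out whole within 0.001 of −log10 p for 99.98%, 100% and 99.99% of peaks in HSC, MPP-r1 and MPP-r2. Genes, miRNA sequences and promoter windows came from RefSeq tables of GRCm38.p6, the same assembly as mm10. They give no exons, and strand was known for 1072 miRNA genes. The planned host check at either end was made at annotated starts, which these tables give. Intervals are Clopper-Pearson for shares and exact Poisson for pileups. The marking code was checked on 200 planted genes and 977 made-up pileups, and recovered 100% of both. Named genes are those marked in all 3 libraries, the 12 best by the worse of their MPP fold ranks among those marked in MPP-r1 and MPP-r2 without HSC, at most 6 of them near a protein-coding end, those marked in HSC and at most 1 MPP library, list members, hosts and neighbours, and the 3 on each side of the limit. Of these, 1 gene is not reported here. The members and lists were chosen with earlier results of these data known. Analysis used Python 3.11.15, pandas 2.3.3, numpy 2.4.6, scipy 1.17.1 and matplotlib 3.10.9.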

Additional observations from a re-analysis of the deposited data

How the results depend on the processing

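No paired analysis was possible because HSC is 1 library and shares fewer than 2 replicate numbers with MPP. Counts are given in the order HSC, MPP-r1, MPP-r2, both MPP, all 3, HSC alone, and both MPP but not HSC; they were 21, 95, 77, 50, 11, 3 and 39. With peaks of q at or below 1e-05 they were 4, 54, 39, 23, 2, 0 and 21. With each MPP list held to the length of the HSC list they were 21, 8, 9, 2, 0, 15 and 2. With overlap of peak and hairpin alone they were 3, 25, 21, 11, 2, 0 and 9. With a limit of 500 bp they were 12, 61, 48, 30, 6, 1 and 24, and with 5 kb 57, 306, 212, 163, 39, 3 and 124. Leaving out 1 MPP replicate in turn gave 77 to 95 genes for MPP, 14 to 15 shared with HSC, 6 to 7 in HSC alone and 63 to 80 in MPP and not HSC. The share of marked genes near protein-coding ends was 42.1% in MPP-r1 with ends taken as 500 bp. With ends taken as 5 kb it was 76.8% in MPP-r1 and 77.9% in MPP-r2, and with held lists 87.5% and 77.8%. Of 82 comparisons with an alternative, 38 stayed within 1.5 times the count given first or, for shares near protein-coding ends, inside its 95% interval, among them those without the top 1% of peaks, with Y, mitochondrial and unplaced genes kept, and with loci counted once. By construction fewer peaks or another limit enter, and no other cause was tested. The number marked in HSC alone rests on 1 library and moved with the limit, the list length and the q.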

Other observations

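Values in this paragraph were picked out after they were seen. Mir6921 and Mir6922 lie in Srebf1, the gene of the lipid synthesis factor SREBP1 and a textbook target of the liver X and retinoid X receptors. The Srebf1 start 9854 bp upstream of Mir6921 had a fold of 9.68 in HSC, 6.31 in MPP-r1 and 9.04 in MPP-r2, with pileups of 21 (13.0 to 32.1), 35 (24.4 to 48.7) and 29 (19.4 to 41.6) fragments. In HSC that put it at the 96.2nd percentile of the list. The Mir6921 hairpin itself was marked in both MPP libraries, with folds of 4.72 and 4.65 and summits 696 and 739 bp away. Mybl2, a cell cycle transcription factor gene that carries Mir7003, had folds of 6.70 in HSC, 9.66 in MPP-r1 and 12.7 in MPP-r2 at its start. Map2k4, a stress kinase gene that carries Mir744, had folds of 6.58, 12.1 and 11.5 for the same libraries. The Mir744 hairpin, 53527 bp downstream of that start, had a peak of its own in MPP-r1, with a fold of 4.39 and a summit inside the hairpin.

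The classes of miRNA number below were also picked out after their values were seen. Genes numbered 8000 or above and under 9000 were marked in 2 of 32 cases in HSC (6.25%, 0.766 to 20.8%), 15 in MPP-r1 (46.9%, 29.1 to 65.3%) and 8 in MPP-r2 (25%, 11.5 to 43.4%). Over all miRNA genes the shares were 1.71%, 7.74% and 6.27%. Of the members of this class marked in MPP-r2, only Mir8096 lay more than 1 kb from a protein-coding gene end. The shares of the class were not split by distance to such ends. Genes numbered under 1000 were marked in 7 of 515 cases in HSC (1.36%), 29 in MPP-r1 (5.63%) and 19 in MPP-r2 (3.69%). No test was made.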
